A study of Arabidopsis thaliana with 9 samples.

Results

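The 9 sulfur starvation marker genes described here are the 4 LSU genes (RESPONSE TO LOW SULFUR), LSU1 (AT3G49580), LSU2 (AT5G24660), LSU3 (AT3G49570) and LSU4 (AT5G24655), the paralogs SDI1 (AT5G48850) and SDI2 (AT1G04770), and the enzyme genes BGLU28 (AT2G44460), SHM7 (AT1G36370) and GGCT2;1 (AT5G26220). They were taken by locus identifier from a table of 28775 genes, in which all 9 had a row, and 8 of them passed a filter on low counts that left 19580 genes. The set was chosen on known roles and also on its measured values: lower counts of several of these genes in carbenicillin roots than in mock roots were already known when it was drawn up. The contrasts with mock roots are therefore a description: fitted values and counts of called genes are given without p-values for the 9 genes, and they support nothing on their own.

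Total RNA from roots of Arabidopsis thaliana Col-0 was compared in 9 libraries, 3 in each of 3 groups. All seedlings grew at 24 °C with 16 h of light and 8 h of darkness on 0.5-strength MS medium, were moved to a fresh plate after 6 days, and carried no transgene or mutation named in the labels. Mock seedlings had no antibiotic on either plate. The 1 day group met carbenicillin, a beta-lactam antibiotic that blocks bacterial wall synthesis, at 10 µg/mL after the move, and the 7 day group had 10 µg/mL on both plates. Libraries are named by group and replicate number (mock 1, 1 day 3). The labels number the replicates without saying that they came from separate cultures, so the spread between libraries may be partly technical.

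Plants take up sulfate, reduce it and join the sulfide to O-acetylserine to form cysteine. When sulfate runs short, O-acetylserine accumulates and a small group of genes rises with it, among them LSU1, SDI1, SDI2, SHM7, GGCT2;1 and the reductase gene APR3. LSU proteins are short, plant-specific proteins that bind many partners. SDI1 and SDI2 hold back the synthesis of glucosinolates, which are sulfur-rich defence compounds, and SDI1 does so by binding the factor MYB28. BGLU28 is a beta-glucosidase linked to the release of sulfur from glucosinolates, GGCT2;1 breaks down glutathione, and SHM7 belongs to the serine hydroxymethyltransferases and is needed to keep S-adenosylmethionine levels. The transcription factor EIL3, also called SLIM1, drives much of this response in roots. Low values of these genes are the state known from well-supplied plants and high values that of starved plants.

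In the RefSeq annotation of assembly TAIR10.1 the LSU genes formed neighbouring pairs in the same orientation. LSU3 and LSU1 lay next to each other on chromosome 3, with 1760 bp between them, and LSU4 and LSU2 on chromosome 5, with 1914 bp between them. Coding sequence identity was 87.0% for LSU2 and LSU4, the neighbours on chromosome 5, and 80.3% for LSU1 and LSU3, the neighbours on chromosome 3. The other 4 LSU pairs had 69.1% to 76.5%, and SDI1 and SDI2 62.4%. The longest run of identical bases shared by any of these pairs was 30, between LSU2 and LSU4, and the read length behind the counts is not given in the sources used here. Of the 9 genes, SDI2 was the only one that overlapped another annotated gene, AT1G04760 on the opposite strand over 431 bp, and the strand setting of the counting is not given either.

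The 250 bases before the annotated gene start were searched on both strands for 3 motifs known from the regulation of sulfur or light responses. The SURE core GAGAC, first described in the SULTR1;1 promoter, stood in 4 of the 9 promoters (SDI1, GGCT2;1, LSU4 and BGLU28) and in 25.8% of 27443 promoters of protein-coding genes. The site of EIN3-like factors, known from the tobacco factor TEIL and spelled A, C or T, G, A or T, A, C or T, C, T (8 forms, among them ATGAATCT), stood in 2 of 9 (SHM7 and LSU4) and in 5.93% of all. The G-box CACGTG, which HY5 binds, stood in LSU3 alone and in 6.49% of all. No motif overlapped another in these 9 windows. LSU1, LSU2 and SDI2 held none of the 3 in these letters and this window, and a match is a description of the letters, not a binding site. The genes below are shown because they represent each of these cases: SDI1 and GGCT2;1 with the SURE core, SHM7 with the EIN3-like site, LSU3 with the G-box and LSU2 with no match. Sequences are from RefSeq TAIR10.1, written 5′ to 3′ on the gene's strand up to the base before the gene start, with motif matches in capitals (GTCTC is GAGAC on the other strand); the build behind the counts is not given in the sources used here.
SDI1, chr5:19807854-19808103, minus strand: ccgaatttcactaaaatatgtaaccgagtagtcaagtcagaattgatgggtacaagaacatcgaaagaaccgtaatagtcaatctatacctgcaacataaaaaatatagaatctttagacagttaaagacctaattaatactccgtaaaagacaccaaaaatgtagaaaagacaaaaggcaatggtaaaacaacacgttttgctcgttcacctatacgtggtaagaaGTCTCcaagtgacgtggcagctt
GGCT2;1, chr5:9164885-9165134, minus strand: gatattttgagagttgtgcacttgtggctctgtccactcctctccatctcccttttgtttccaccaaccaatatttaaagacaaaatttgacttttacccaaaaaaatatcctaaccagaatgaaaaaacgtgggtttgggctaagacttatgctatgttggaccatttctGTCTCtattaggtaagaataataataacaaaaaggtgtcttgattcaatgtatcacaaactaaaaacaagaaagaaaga
SHM7, chr1:13698740-13698989, minus strand: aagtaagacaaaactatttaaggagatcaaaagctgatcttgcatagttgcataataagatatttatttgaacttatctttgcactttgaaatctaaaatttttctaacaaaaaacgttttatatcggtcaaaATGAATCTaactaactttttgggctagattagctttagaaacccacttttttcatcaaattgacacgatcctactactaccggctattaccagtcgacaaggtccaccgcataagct
LSU3, chr3:18373148-18373397, minus strand: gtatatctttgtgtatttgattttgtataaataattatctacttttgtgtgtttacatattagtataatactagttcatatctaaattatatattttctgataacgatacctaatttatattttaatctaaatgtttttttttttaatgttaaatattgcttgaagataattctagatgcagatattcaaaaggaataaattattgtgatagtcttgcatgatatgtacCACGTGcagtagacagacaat
LSU2, chr5:8444102-8444351, minus strand: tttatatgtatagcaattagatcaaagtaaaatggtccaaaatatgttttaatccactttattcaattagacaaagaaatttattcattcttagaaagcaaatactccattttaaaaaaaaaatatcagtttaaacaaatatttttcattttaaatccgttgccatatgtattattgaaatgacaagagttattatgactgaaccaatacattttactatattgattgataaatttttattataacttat

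Library totals ran from 5820675 to 16088265 counts, and mock 1, 1 day 3 and 7 days 3 (7533177 counts at most) were far shallower than the others (13707967 at least). All 8 root markers on a list (SHR, SCR, PLT1, PIN2, RHD6, COBL9, NRT2.1 and CASP1) were detected in every library, with a summed level of 330 to 410 CPM (counts scaled to a common library size). Of 8 shoot transcripts, up to 4 were at 0 in a library, and their sum was 0.603 to 2.11 CPM in 5 libraries but 32.5 in mock 1, 38.6 in mock 3, 62.4 in 1 day 3 and 92.6 in 7 days 3. The 6 touch and early wounding genes summed to 71.8 to 85.6 CPM in the 3 shallow libraries and 32.7 to 50.8 CPM in the others. In whole roots, fewer cells of a type and less RNA per cell cannot be told apart.

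The LSU genes were lower in every 1 day library than in every mock library, and LSU2 was the most clearly separated. CPM values below are scaled by TMM, which corrects for differences in library composition. LSU2 stood at 10.51, 9.55 and 14.8 CPM in the 3 mock libraries, in replicate order, at 4.01, 3.84 and 3.92 CPM after 1 day and at 4.81, 3.82 and 3.60 CPM after 7 days. All 6 carbenicillin libraries thus lay well below the lowest mock library, and the 1 day libraries were nearly equal. The mean was 11.6 ± 2.80 CPM in mock, 3.92 ± 0.0829 after 1 day and 4.08 ± 0.64 after 7 days (SD, n = 3 each). The fitted log2 difference from mock was -1.57 (SE 0.20) after 1 day and -1.50 (SE 0.20) after 7 days. The smallest count behind these values was 24, in 7 days 3, with an exact Poisson 95% interval of 15.4 to 35.7 for counting error alone.

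LSU1, on chromosome 3, had its larger fitted decrease after 7 days, but its carbenicillin groups overlapped each other. It had 8.41, 13.6 and 13.1 CPM in mock, 5.15, 7.94 and 8.23 CPM after 1 day and 5.02, 6.64 and 4.65 CPM after 7 days. Both carbenicillin groups were below mock without overlap, but mock 1 at 8.41 CPM lay close to 1 day 3 at 8.23 CPM. The log2 fold change was -0.77 (SE 0.23) after 1 day and -1.12 (SE 0.24) after 7 days, so that LSU1 was the only one of the 8 filtered genes with a larger fitted decrease at 7 days. Without mock 1 the 1 day value was -0.93, and without 1 day 1 it was -0.57. Over 16 alternative fits it ran from -1.02 to -0.57.

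LSU3 and LSU4 were the scarce copies. LSU3 had 3.85, 1.76 and 1.35 CPM in mock, 0.931, 1.01 and 0.783 CPM after 1 day and 0.933, 1.48 and 1.65 CPM after 7 days. Mock 1 stood above all other libraries and the 1 day group had the lowest mean. The 7 day libraries overlapped both groups, with 7 days 1 below 1 day 2. Its log2 fold change was -1.17 (SE 0.42) after 1 day and -0.67 (SE 0.40) after 7 days, and without mock 1 these became -0.74 and -0.24. The 7 day value was -0.45 without 7 days 1. Without the 3 shallow libraries the 1 day and 7 day values were -0.68 and -0.36. LSU4 had 1.75, 2.199 and 1.75 CPM in mock, 1.002, 1.39 and 1.04 CPM after 1 day and 2.08, 0.805 and 1.499 CPM after 7 days. The 1 day libraries lay below mock, while 7 days 1 lay within the mock range and 7 days 2 below every other library. The LSU4 log2 fold change was -0.72 (SE 0.36) after 1 day and -0.41 (SE 0.35) after 7 days, and the latter was -0.84 without 7 days 1, -0.07 without 7 days 2 and -0.27 without mock 2. Counts of 6 to 35 per library stood behind both genes, so counting error alone spans a wide range: the 6 counts of LSU3 in 1 day 3 have an exact Poisson 95% interval of 2.20 to 13.1.

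**Figure D1:**
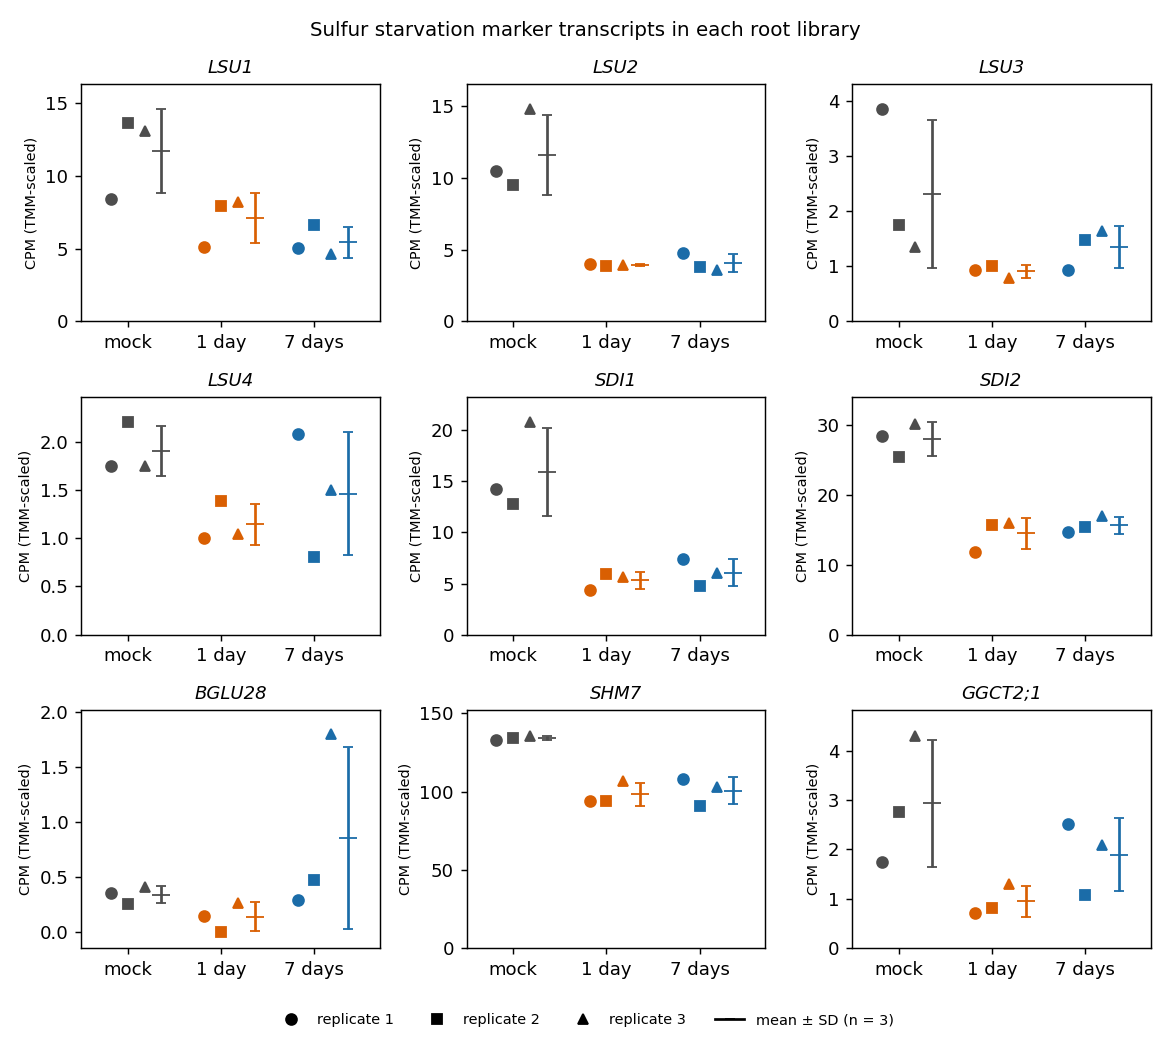
TMM-scaled CPM of the 9 genes in each library, by group (x axis), with circles, squares and triangles for replicates 1, 2 and 3 and a bar for the mean ± SD (n = 3). LSU1, LSU2, SDI1, SDI2 and SHM7 separate mock from all 6 carbenicillin libraries, while LSU3, LSU4 and GGCT2;1 overlap with mock again after 7 days.

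The SDI genes, the brakes on glucosinolate synthesis, were lower in every carbenicillin library than in every mock library. SDI1 stood at 14.2, 12.8 and 20.7 CPM in mock, 4.37, 5.92 and 5.61 CPM after 1 day and 7.39, 4.76 and 6.00 CPM after 7 days. The highest carbenicillin library, 7 days 1, was still well under the lowest mock library. Its mean was 15.9 ± 4.25 CPM in mock, 5.30 ± 0.824 after 1 day and 6.05 ± 1.32 after 7 days (SD, n = 3 each), with log2 fold changes of -1.60 (SE 0.23) and -1.40 (SE 0.23).

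SDI2 was the more abundant paralog and had the smaller change. Its values were 28.4, 25.4 and 30.2 CPM in mock, 11.9, 15.7 and 15.9 CPM after 1 day and 14.6, 15.4 and 16.9 CPM after 7 days. The carbenicillin groups overlapped each other, and both were clear of mock. The log2 fold change was -0.95 (SE 0.14) after 1 day and -0.84 (SE 0.14) after 7 days, and reads of AT1G04760 on the other strand could be counted with it if strand was not used.

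Among the enzyme genes, SHM7 was the most abundant and had the tightest groups. It had 133 CPM in mock 1, 134 in mock 2 and 136 in mock 3, then 94.2, 94.3 and 107 CPM after 1 day and 108, 90.9 and 103 CPM after 7 days. The mock libraries differed by less than 3 CPM, and all 6 carbenicillin libraries lay below them. The log2 fold change was -0.45 (SE 0.10) after 1 day and -0.42 (SE 0.10) after 7 days, the smallest after 1 day of the 8 filtered genes.

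GGCT2;1, the glutathione-degrading enzyme, had the largest fitted decrease after 1 day but few counts. It stood at 1.75, 2.76 and 4.31 CPM in mock, 0.716, 0.819 and 1.31 CPM after 1 day and 2.51, 1.07 and 2.098 CPM after 7 days. The 1 day libraries lay below mock, whereas 2 of the 3 7 day libraries lay inside the mock range. The log2 fold change was -1.77 (SE 0.42) after 1 day and -0.73 (SE 0.38) after 7 days, from 10 to 64 counts per library. The 7 day value was -0.34 without mock 3 and -0.40 without 7 days 2.

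BGLU28, the glucosinolate-cleaving glucosidase, was close to the limit of detection and did not pass the filter, so it has no fitted change. Its counts were 2, 4 and 6 in mock, 2, 0 and 2 after 1 day and 4, 7 and 12 after 7 days, in replicate order. The 0 in 1 day 2 was kept as 0, and its exact Poisson 95% interval reached 3.69 counts. A floor of 3 counts would be 0.189 CPM in that library. In CPM the 7 day libraries (0.287, 0.470 and 1.799) lay above the 1 day libraries (0.143, 0 and 0.261), but the exact Poisson 95% intervals of the nearest counts, 4 (1.09 to 10.2) and 2 (0.242 to 7.22), overlapped widely. The highest value came from 7 days 3, the library with the highest sum of shoot transcripts (92.6 CPM), whose part in it was not tested. BGLU28 was thus the one gene of the set whose 7 day mean (0.852 ± 0.825 CPM) was above its mock mean (0.335 ± 0.0774 CPM).

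Levels of different genes were compared per exonic length, as RPKM, which is CPM divided by the length in kilobases, with lengths from the TAIR10.1 annotation. In mock roots SHM7 led with 62.3 ± 0.571 RPKM (SD, n = 3), followed by SDI2 with 21.8 ± 1.88 RPKM. LSU2 (14.1 ± 3.40 RPKM), LSU1 (13.2 ± 3.25 RPKM) and SDI1 (13.1 ± 3.50 RPKM) came next and did not differ from each other beyond their spread. LSU3 (3.12 ± 1.81 RPKM), LSU4 (2.49 ± 0.339 RPKM) and GGCT2;1 (2.41 ± 1.06 RPKM) formed a lower tier, again within their spread, and BGLU28 was last with 0.153 ± 0.0354 RPKM. Each neighbouring pair thus held one abundant and one scarce LSU gene. After 1 day LSU1 (8.02 RPKM) stood above LSU2 (4.77 RPKM) and SDI1 (4.37 RPKM), and after 7 days the 3 were at 6.14, 4.95 and 4.98 RPKM.

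**Figure D2:**
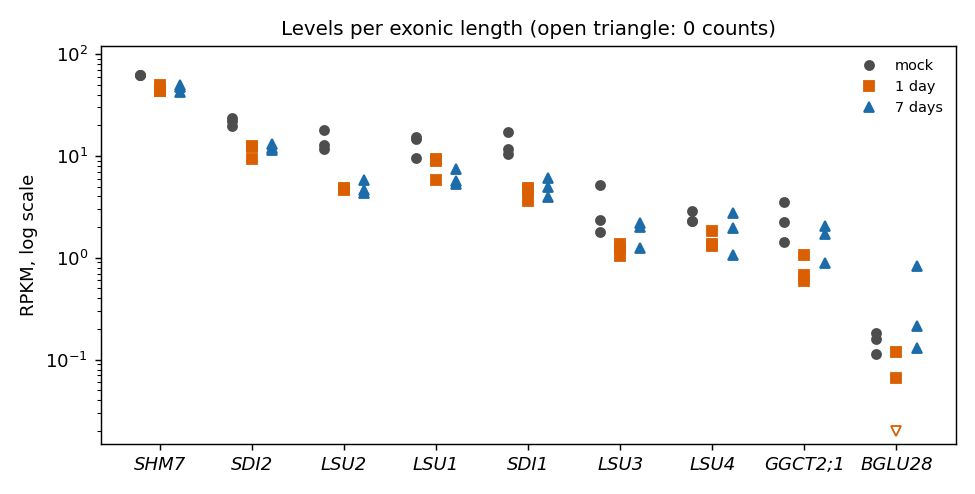
RPKM of the 9 genes (log scale) in every library, ordered by mock mean, with circles for mock, squares for 1 day and triangles for 7 days; an open triangle marks the library with 0 counts. By group mean the order of tiers, SHM7 and SDI2 above LSU1, LSU2 and SDI1, above LSU3, LSU4 and GGCT2;1, was the same in mock, after 1 day and after 7 days.

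All 9 libraries entered 1 edgeR quasi-likelihood fit, and genes were called at a Benjamini-Hochberg adjusted p under 0.05 over all 19580. After 1 day 3 of the 8 filtered genes (LSU2, SDI1 and SDI2) were called lower, where 0.148% of all tested genes were called lower and 0.0102% higher. All 8 lay below mock without overlap between the groups, as did 5.79% of all tested genes. After 7 days none was called, and none of all tested genes was called lower (0%) or higher (0%), with 870 genes at an unadjusted p under 0.05. Then 5 of the 8 (LSU1, LSU2, SDI1, SDI2 and SHM7) lay below mock without overlap, as did 4.53% of all tested genes. The median log2 fold change of the 8 was -1.06 after 1 day and -0.79 after 7 days, beside 0.00 over all tested genes in both. The set was drawn up with these contrasts known and both share the mock libraries, so nothing is read from these counts.

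The 1 day calls depended on single libraries more than the sizes did. LSU2, SDI1 and SDI2 all lost their calls without mock 3, without 1 day 1 or without 1 day 2, where edgeR called 0 genes in all and 1067, 1308 and 1144 had an unadjusted p under 0.05. LSU2 alone kept its call without 1 day 3, and SDI2 also lost its call without mock 1, mock 2 or 7 days 1. The LSU2 log2 fold change ran from -1.71 to -1.35 over 16 alternative fits, that of SDI1 from -1.74 to -1.34 and that of SDI2 from -1.02 to -0.82. Without the 3 shallow libraries the same 3 genes were called, with LSU2 at -1.63, SDI1 at -1.69 and SDI2 at -1.01. In that fit 69 genes in all were called lower and 25 higher, against 29 and 2 in the main fit. DESeq2 called 5 lower after 1 day (those 3, SHM7 and GGCT2;1), where it called 0.710% of all genes lower and 0.306% higher. After 7 days it called 4 lower (LSU1, LSU2, SDI1 and SDI2), where it called 0.141% lower and 0.108% higher.

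**Figure D3:**
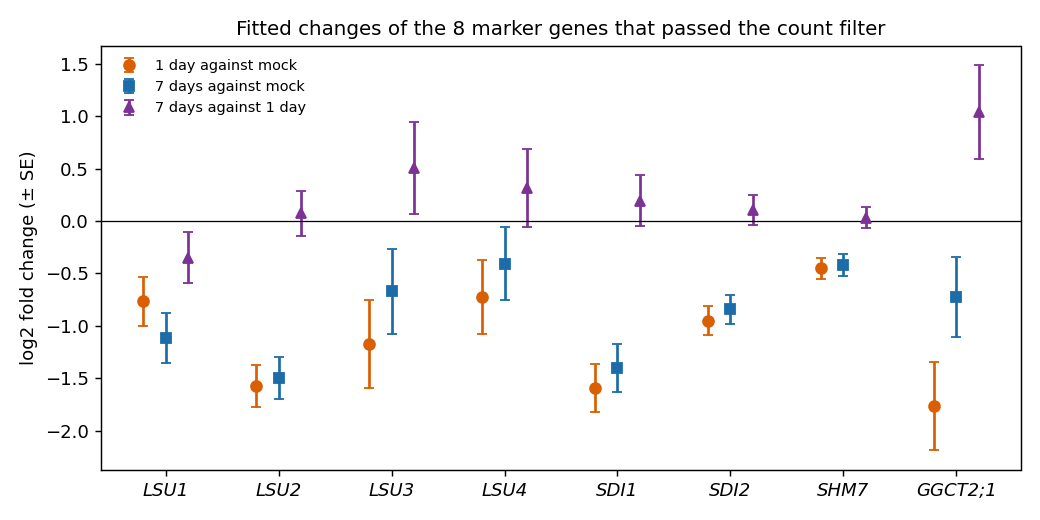
Fitted log2 fold changes (± SE) of the 8 genes that passed the count filter, for 1 day against mock (circles), 7 days against mock (squares) and 7 days against 1 day (triangles). All 16 values against mock are below 0. For 7 days against 1 day 7 of the 8 values are above 0, with GGCT2;1 highest at 1.04, and LSU1 is at -0.35. None of the 8 was called in that contrast.

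The difference between the long and the short exposure was tested directly as 7 days against 1 day, in which the mock libraries cancel. None of the 8 genes was called in edgeR's quasi-likelihood test (adjusted p = 1.00 for each), nor was any gene (0% lower and 0% higher of all tested, with 398 genes at an unadjusted p under 0.05), and DESeq2 also called 0. GGCT2;1 had the largest difference, a log2 fold change of 1.04 (SE 0.45), and ran from 0.70 to 1.37 over 17 alternative fits. LSU3 followed at 0.50 (SE 0.44) and LSU4 at 0.32 (SE 0.37), which became -0.12 without 7 days 1. LSU2, SDI1, SDI2 and SHM7 had 0.07 (SE 0.22), 0.19 (SE 0.24), 0.11 (SE 0.14) and 0.03 (SE 0.10), and LSU1 was the only one below 0, at -0.35 (SE 0.24). In 7 of 8 genes the 7 day value was thus the higher one, as it was for 9887 of the 19580 tested genes, and none of the 8 lay above its 1 day libraries without overlap (3.06% of all tested genes did) or below them (3.31% did). This contrast shares its libraries with the contrasts on which the genes were chosen.

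The other genes of sulfur metabolism, on lists chosen with earlier results known, had medians nearer 0. The markers were chosen partly for their lower values against mock, so nothing is read from this difference. Of 12 sulfate transporters 10 passed the filter and 0 were called in any comparison. Over all tested genes 0.148% were called lower and 0.0102% higher after 1 day, and 0% otherwise. After 1 day 7 transporters were lower and 3 higher, with a median log2 fold change of -0.01, and after 7 days the median was 0.04. SULTR2;1, a transporter of the vascular tissue, had a log2 fold change of -0.53 (SE 0.29) after 1 day, SULTR1;2, the main uptake transporter of the root, -0.36 (SE 0.25), and the vascular SULTR2;2 0.41 (SE 0.27). The last gene overlaps the annotated gene AT1G77992. In cysteine and glutathione synthesis 10 of 10 genes were tested and 0 called, with medians of -0.01 and 0.01; the serine acetyltransferase gene SERAT3;2 stood at -0.71 (SE 0.43), its relative SERAT1;1 at 0.11 (SE 0.13) and the glutathione synthetase gene GSH2 at 0.11 (SE 0.09).

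Sulfate activation and reduction, the steps that turn sulfate into sulfide, held 1 called gene. Of 12 such genes, all tested, 1 was called lower after 1 day and 0 after 7 days, with medians of -0.13 and -0.12. The shares called lower over all tested genes were 0.148% after 1 day and 0% after 7 days. APR2, which encodes an adenosine phosphosulfate reductase, went from 76.3 ± 8.72 CPM in mock to 34.6 ± 5.08 CPM after 1 day and 46.0 ± 9.86 CPM after 7 days (SD, n = 3 each). It was the called gene, with a log2 fold change of -1.15 (SE 0.17) and an edgeR adjusted p of 0.0346 after 1 day. Its paralog APR3, which shares the O-acetylserine response of the markers, had -0.88 (SE 0.25) after 1 day and -0.44 (SE 0.25) after 7 days, with an edgeR adjusted p of 0.322 after 1 day. The remaining paralog, APR1, which was singled out after its values were seen, had 118 ± 24.0 CPM in mock, 69.5 ± 24.1 CPM after 1 day and 81.6 ± 22.6 CPM after 7 days (SD, n = 3 each), with overlap. Its log2 fold change was -0.77 (SE 0.26) after 1 day and -0.53 (SE 0.26) after 7 days (edgeR adjusted p = 0.464 after 1 day). APK4, a kinase gene that directs sulfate towards sulfated compounds, had the opposite sign with 0.98 (SE 0.26) after 1 day and 0.76 (SE 0.27) after 7 days (edgeR adjusted p = 0.268 after 1 day). APR2 and APR3 overlap other annotated genes and the 3 APR genes are similar copies, so their counts are uncertain where reads could be shared. This list, too, was chosen with earlier results of these data known, so its p-values are a description.

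Of 9 transcription factors linked to the sulfur response, 8 were tested and 2 called lower after 1 day, none after 7 days. Of all tested genes 0.148% were called lower after 1 day and 0% after 7 days. HY5, a light-signalling factor that binds APR promoters, went from 43.5 ± 8.25 to 21.6 ± 2.66 CPM after 1 day and 27.6 ± 2.24 CPM after 7 days (SD, n = 3 each), and its homolog HYH from 37.4 ± 6.71 to 16.1 ± 1.82 and 21.5 ± 5.48 CPM. Their log2 fold changes after 1 day were -1.01 (SE 0.15) and -1.23 (SE 0.19), with edgeR adjusted p-values of 0.0346 and 0.0405. This list was chosen with earlier results of these data known, so these p-values are a description. EIL1, an EIN3-like factor of ethylene signalling, had -0.17 (SE 0.11). EIL3 itself, the main activator of the starvation response and singled out after its values were seen, had a log2 fold change of -0.03 (SE 0.11) after 1 day, with 30.1 ± 3.47 CPM in mock, 29.6 ± 1.48 CPM after 1 day and 29.9 ± 0.729 CPM after 7 days. The calls of APR2, HY5 and HYH fell in the comparison in which 0 genes were called without mock 3, 1 day 1 or 1 day 2.

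Of 17 relatives of the markers in their own gene families 11 were tested, and 0 were called in any comparison, which is no more than the shares over all tested genes give (0.148% lower and 0.0102% higher after 1 day, 0% otherwise). Their median log2 fold change was -0.09 after 1 day and 0.02 after 7 days. SHM4, the abundant cytosolic serine hydroxymethyltransferase, had -0.42 (SE 0.20) after 1 day, the MS5-like gene AT3G51280 -0.32 (SE 0.15) and the glutathione-degrading GGCT2;3 0.35 (SE 0.16). GGCT2;3 overlaps the annotated gene AT1G44780, and SERAT3;2, CA1, TCH2 and TCH3 also overlap other genes. In the marker lists 0 genes were called after 1 day: RHD6, PIN2 and SCR of the root had -0.26 (SE 0.13), -0.22 (SE 0.19) and -0.19 (SE 0.17), LOX2, CA1 and TGG1 of the shoot -1.90 (SE 1.48), -1.45 (SE 1.80) and -0.72 (SE 1.61), and ZAT12, TCH3 and TCH2 of the touch response -0.46 (SE 0.30), 0.53 (SE 0.38) and -0.40 (SE 0.40). After 1 day 7 of 8 root, 7 of 8 shoot and 3 of 6 touch genes were lower. The list medians were -0.18, -0.37 and -0.17.

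**Figure D4:**
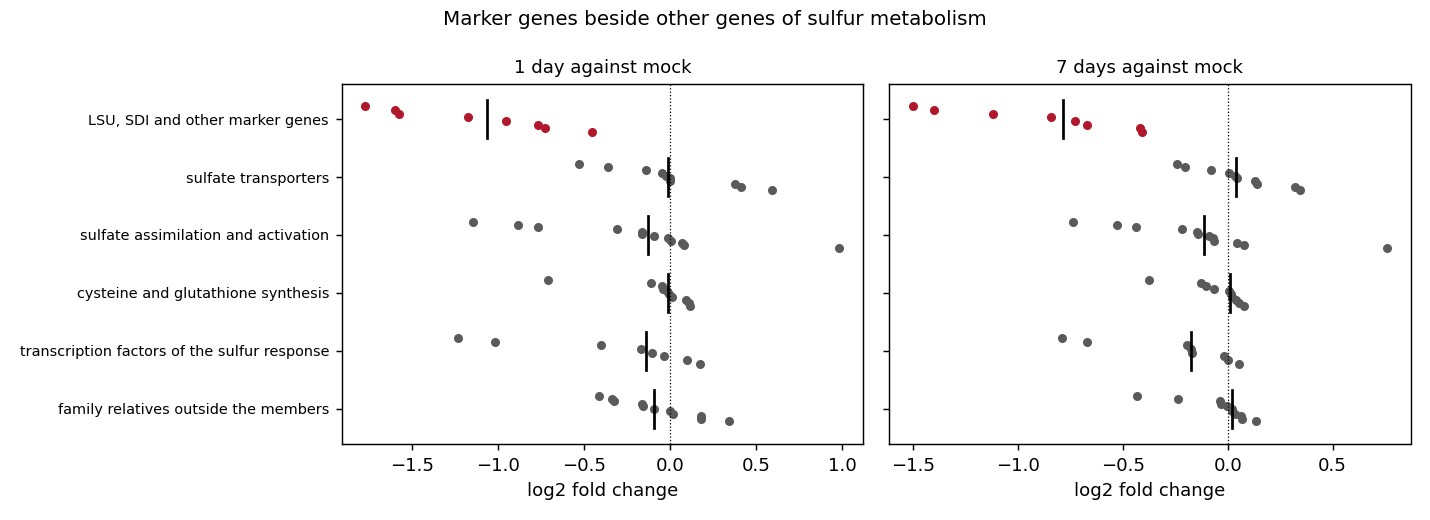
Fitted log2 fold changes of tested genes (points) and their medians (bars) for the 8 filtered marker genes and 5 lists, after 1 day (left) and 7 days (right) against mock. The marker genes, which were chosen with these contrasts known, have medians of -1.06 and -0.79, and the 5 lists have medians between -0.17 and 0.04.

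The genes whose profile over the 9 libraries was most like that of the markers were ranked among the 19572 other tested genes. The likeness was Pearson's r between a gene's log2 CPM and the mean standardised log2 CPM of the 8 filtered markers, which lay between 0.98 and 1.24 in mock, -1.01 and -0.51 after 1 day and -0.73 and -0.15 after 7 days. The 10 highest were SMZ (0.969), a floral repressor of the AP2 family, TON1A (0.960), which organises cortical microtubules, SPA1 (0.950), a repressor of light signalling, APR2 (0.946), AT5G42570 (0.942), the glutathione transferase gene GSTU6 (0.938), the trehalose phosphate phosphatase gene ATTPPA (0.937), AT3G04140 (0.935), the karrikin receptor gene KAI2 (0.933) and the immune receptor gene ADR1 (0.933). APR2 was thus the only one of these 10 on a list of sulfur genes, while HY5 ranked 71 (0.871), HYH 110 (0.848), APR1 205 (0.792) and APR3 322 (0.746). SMZ, APR2, GSTU6 and ATTPPA overlap other annotated genes. The points share libraries and depth, the profile is largely the step from mock to carbenicillin, and the best of so many genes must be high, so the values are a description. TON1A was among them with a small difference, at 31.0 ± 0.288, 27.9 ± 0.355 and 28.5 ± 0.695 CPM in mock, 1 day and 7 days (SD, n = 3 each).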

How the data were processed

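Per the labels' protocols, total RNA of seedling roots was purified on columns (RNeasy Plant Mini Kit) and made into stranded total RNA libraries (TruSeq); the submitters' processing notes name FastQC, cutadapt and edgeR without versions. How reads were aligned and counted, on which genome build and annotation and with which strand option, is not given in the sources used here. Whole-number counts for 28775 genes were deposited by the authors without normalization, with 2 unnamed rows that were left out.

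The main test used edgeR 4.0.16 (R 4.3.3) with filterByExpr (minimum count 10), TMM scaling and 1 quasi-likelihood fit of all 9 libraries with group as the only factor. Standard errors are the absolute log2 fold change divided by the square root of F. Alternatives included DESeq2 1.42.0. The edgeR procedure was also run on simulated counts with known changes in the 1 day group only. Their spread followed the trend over all genes, not that of each gene. The run therefore says nothing about how stable the calls in these libraries are. Log2 CPM for the likeness ranking used a prior count of 2. The RefSeq annotation of TAIR10.1, which named 28009 of the 28775 genes, gave names, lengths, neighbours and promoters. It was not compared with the authors' build.

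The markers and gene lists were chosen with earlier results of these data known. All 9 markers are named; from each other list the 3 lowest p-values after 1 day and any called gene; and the 10 genes of highest likeness. Same-number libraries of 7 days and 1 day deviated together (correlations 0.205 to 0.257), a pairing taken from the data, since no label gives what they share. With mock, 1 of 3 same-number pairs exceeded 0.1 for each group (0.339 and 0.423, both replicate 2). Pairs of different number did so as well, among them 1 day 3 with mock 1 (0.360) and 7 days 3 with mock 1 (0.327). Libraries were therefore not treated as paired with mock. Within groups every pair of libraries differed beyond sampling noise (chi-square per degree of freedom at least 9.95). Intervals and floors of counts cover counting error only.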

Additional observations from a re-analysis of the deposited data

How the results depend on the processing

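All 16 log2 fold changes of the filtered markers against mock kept their sign in the 16 alternative fits, and after 7 days against 1 day LSU2, LSU4, SDI1, SDI2 and SHM7 each changed sign in 1 of 17, none of them called. Over all comparisons of a filtered marker with an alternative, 368 kept their call status and moved by less than the spread between replicates; 14 lost and 6 gained a call, and 4 moved beyond that spread without a call. After 1 day, genes called lower numbered 49 without a filter, 139 by DESeq2 and 69 without the 3 shallow libraries (29 as reported), and those called higher 12, 60 and 25, with 7 in a fit of the 2 groups alone and 1 with the replicate block (2 as reported). After 7 days DESeq2 called 26 lower and 20 higher, and 13 were called lower without the shallow libraries, against 0. DESeq2 called 5 markers after 1 day and 4 after 7 days (3 and 0 as reported). Leaving out 1 library gave 0 to 36 genes lower, 0 to 8 higher and 0 to 3 markers after 1 day, and 0 in the other comparisons. The replicate block changed no call of a marker, in the fit of all libraries or of the 6 carbenicillin libraries, where 0 genes were called. The causes were not tested. Depth limits LSU3, LSU4, GGCT2;1 and BGLU28 most, with 0 to 64 counts per library.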

Other observations

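The proportions of the paralogs varied between libraries. Per exonic length, LSU1 stood at 0.743, 1.33 and 0.823 times LSU2 in the 3 mock libraries, at 1.19, 1.92 and 1.95 times after 1 day and at 0.970, 1.61 and 1.1998 times after 7 days, so that mock overlapped both carbenicillin groups. SDI1 stood at 0.529, 0.531 and 0.727 times SDI2 in mock and at 0.389, 0.399 and 0.373 times after 1 day, with no overlap, and at 0.534, 0.328 and 0.374 times after 7 days. LSU2 stood at 5.57, 4.03 and 7.85 times its neighbour LSU4 in mock, 3.71, 2.57 and 3.48 times after 1 day and 2.14, 4.41 and 2.23 times after 7 days. LSU1 to LSU3 varied from 1.83 (mock 1) to 8.82 (1 day 3), with the low end in the library where LSU3 was highest. These ratios were computed after the marker values had been seen and were not tested. They restate the contrasts on which the markers were chosen, so nothing is read from their overlap. Those with LSU3 and LSU4 rest on few counts, such as 6 and 8 in 1 day 3.

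The 2 genes ranked first and second by likeness to the markers, SMZ (AT3G54990) and TON1A (AT3G55000), are neighbours on chromosome 3 with 0 annotated genes between them. SMZ went from 18.2 ± 0.937 CPM in mock to 12.1 ± 0.772 CPM after 1 day and 12.5 ± 0.845 CPM after 7 days (SD, n = 3 each). It overlaps the annotated gene AT3G54980.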
